A study of Spirodela polyrhiza with 16 samples.

Results

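Roots and fronds of phosphate-starved giant duckweed, Spirodela polyrhiza, were compared by RNA sequencing. The 8 libraries used were the 4 root and the 4 frond pools of plants kept without phosphate, chosen by tissue and medium from 16 libraries in all. The other 8 were 4 root and 4 frond pools of plants in full medium. They served to show where the organ difference without phosphate departs from that in replete plants. They also entered the filter on low genes and the shared spread behind each standard error and adjusted p. Of 20389 genes in the table, 16598 averaged 0.5 FPKM (fragments scaled by gene length and by library size) or more over the 16 libraries and were tested, and the other 3791 were not.

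All plants were clone 9509, grown in 250 ml flasks with 100 ml of N-medium that was taken off and replaced on day 10. The starved plants then received medium without the phosphate salt KH2PO4 and the replete plants full medium, and both were harvested on day 11. The labels do not say whether another potassium salt took the place of the omitted salt. Each library is the pooled fronds or the pooled roots of the plants of a flask, so cell types are mixed, and a single clone stands for the species.

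Spirodela is a floating plant reduced to a leaf-like frond that carries buds in pouches at its base and a tuft of roots below. The frond is a photosynthetic organ with stomata and cuticle on its upper face, and the roots hang free in the water. In land plants, phosphate is taken up by plasma-membrane transporters, loaded into the xylem by PHO1 and controlled by PHR transcription factors, the SPX proteins that restrain them, and the ubiquitin-conjugating enzyme PHO2. Genes are named below by identifier and by the Swiss-Prot homolog or protein domain that the table gives, which does not show that the duckweed gene has the homolog's function.

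Whole reads recovered from the deposited FPKM summed to 6325297 to 8972466 in the starved frond libraries and 6960954 to 12437151 in the starved root libraries. With these depths 3 reads over 1 kb were worth 0.213 to 0.507 FPKM, so values below that range rest on a read or so and intervals for them would cover counting error only. Starved libraries of an organ correlated at 0.979 to 0.987 in fronds and 0.960 to 0.981 in roots across genes on the log2 scale, and at 0.771 to 0.827 between the organs. Root library 5 carried low levels of frond transcripts. Of 26 genes that reached 20 FPKM in replete fronds and stayed within 0.2 FPKM in each replete root pool, 20 gave reads in root library 5, against 4, 2 and 4 in root libraries 6, 7 and 8. Over the 26 genes, the level in root library 5 was at the median 1.02% of the mean in starved fronds. Root transcripts in the frond libraries could not be checked this way. The same rule with the organs exchanged, on the replete pools, gave 0 root genes. Root library 6 had the highest summed level of cytosolic ribosomal proteins among the starved roots, 30089 FPKM against 16507 to 21071 FPKM. Results that rest on these libraries are given with and without them.

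Most of the measured genes differed between the organs of starved plants. With limma on log2(FPKM + 1), 11217 of 16598 genes were called at a Benjamini-Hochberg adjusted p under 0.05, which is 67.6% of the genes tested. Roots were higher for 5415 genes (32.6%) and fronds for 5802 (35%), with a median size of the called differences of 1.02 on the log2 scale. That split depends on the scaling, since once every library was scaled to an equal FPKM sum 7018 genes were higher in roots and 4536 in fronds and the median of all genes moved by 0.25. Differences of 4 times or more were called for 1742 genes (10.5%), 699 higher in roots (4.21%) and 1043 higher in fronds (6.28%). At 8 times or more the counts were 255 and 350. The 4 root libraries lay wholly above the 4 frond libraries for 4700 genes (28.3%) and wholly below them for 5200 (31.3%). In bulk pools, fewer cells of a type and less RNA per cell cannot be told apart, which holds for every difference below.

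**Figure D1:**
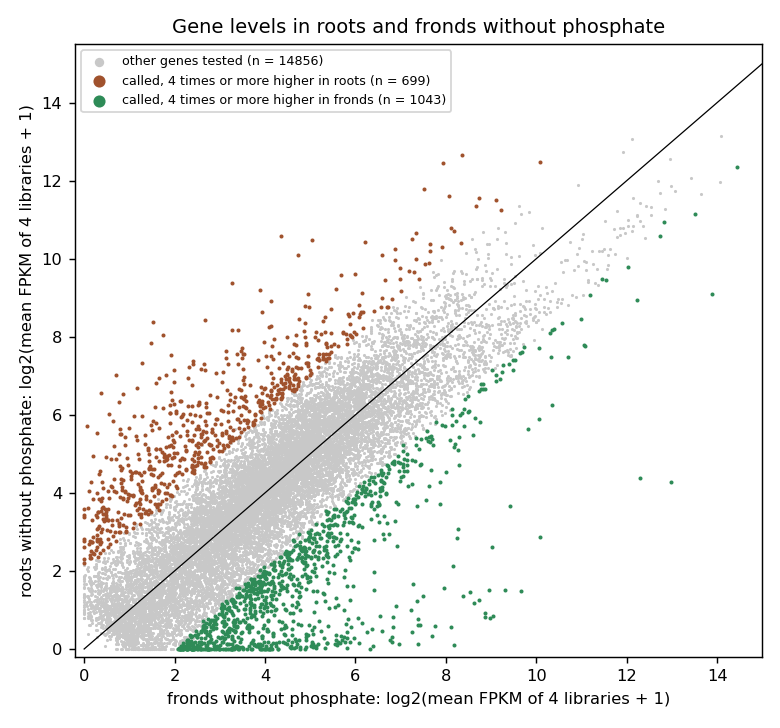
Each point is a gene, placed by its mean level in 4 starved frond libraries (x axis) and 4 starved root libraries (y axis), both as log2(FPKM + 1). Brown points are the 699 genes called 4 times or more higher in roots and green points the 1043 higher in fronds. Many green points lie at 0 on the root axis.

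The largest root excesses joined membrane carriers, metal and iron regulators and cell wall and lipid enzymes. Sp03g01111 (chromosome 3, 6345842 to 6346720), which has a domain of unknown function but no named homolog, stood at 207, 182, 315 and 207 FPKM in root libraries 5 to 8 and 1.15, 1.33, 1.92 and 2.68 FPKM in frond libraries 5 to 8. The lowest root library stood far above the highest frond library, and the log2 difference, root minus frond, was 6.36 ± 0.20 (SE; adjusted p = 3.17e-13). Related to WAT1, a vacuolar auxin carrier of Arabidopsis, were Sp01g00601 and Sp18g00412. Sp01g00601 (chromosome 1, 3860328 to 3862182) stood at 231, 217, 355 and 258 FPKM in roots and 1.72, 1.54, 3.08 and 2.99 FPKM in fronds, a log2 difference of 6.33 ± 0.18 (SE; adjusted p = 1.99e-13). Sp18g00412 was more abundant in both organs, at 590.4 ± 122 against 13.7 ± 2.95 FPKM (mean ± SD, n = 4 each), a log2 difference of 5.33. The groups did not overlap for any of these, since only genes without overlap were chosen for the largest excesses.

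Several of the genes with the largest root excess handle solutes. An organic cation/carnitine transporter 1 homolog, Sp14g00298, had 189.99, 77.1, 145 and 104 FPKM in the root libraries and 0.417, 0.641, 1.07 and 0.387 FPKM in the frond libraries. The homolog of zinc transporter 5, a ZIP-family carrier, was high in both but far higher in roots: Sp11g00438 (chromosome 11, 2819927 to 2822426) had 2380.1, 678, 686 and 1948 FPKM in roots and 11.4, 30.6, 20.6 and 65.3 FPKM in fronds, a log2 difference of 5.47 ± 0.48 (SE; adjusted p = 6.03e-08). Its root values were uneven, libraries 5 and 8 standing well above libraries 6 and 7. All lay above the fronds, which the choice of these genes required. The tonoplast aquaporin TIP1-2 homolog, Sp01g01589, had 1225, 875, 1357 and 902 FPKM in roots and 30.6, 22.6, 31.5 and 16.8 FPKM in fronds, and here the root values lay closer together. FER-LIKE IRON DEFICIENCY-INDUCED TRANSCRIPTION FACTOR, known as FIT, switches on iron uptake in Arabidopsis roots. Its homolog Sp16g00295 (chromosome 16, 1664510 to 1665830) had 58.3, 30.2, 41.5 and 76.1 FPKM in roots, and was listed at 0 in 3 frond libraries and at 0.168 FPKM in frond library 6.

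The remaining large root excesses were those of a DNA-binding AT-hook protein 22 homolog (Sp13g00044, 159.9 ± 25.2 FPKM in roots against 1.43 ± 0.762 in fronds), the endoglucanase 20 homolog, which trims cell wall glucan (Sp19g00214, 346 ± 155 against 5.404 ± 3.75), a phospholipase A1-II (Sp08g00623, 92.02 ± 28.4 against 0.827 ± 0.759), the bZIP transcription factor TGAL4 (Sp16g00028, 185 ± 38.3 against 2.7999 ± 1.09) and the cysteine endopeptidase CEP1 (Sp09g00643, 79.6 ± 31.2 against 0.695 ± 0.7303). CEP1 is known in Arabidopsis from cells that die as part of development. Endoglucanase 20 and the next gene on the chromosome, Sp19g00213, also annotated as an endoglucanase, were both root-high, the latter at 55.9, 18.5, 25.4 and 12.6 FPKM in roots against 0.338, 0, 1.297 and 0.392 FPKM in fronds.

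The 12 largest frond excesses included 5 genes with homologs of cuticle or epidermis, beside a germin-like protein, an aquaporin and others. The most abundant was Sp04g01473 (chromosome 4, 9149329 to 9149826), a homolog of the germin-like auxin-binding protein ABP19a of peach. It stood at 7998, 8877, 8449 and 7120.3 FPKM in frond libraries 5 to 8 and 62.6, 7.69, 1.65 and 2.18 FPKM in root libraries 5 to 8. Root library 5 holds most of the root signal: the log2 difference was -9.94 ± 0.85 (SE; adjusted p = 4.14e-08) with it and -10.92 without it. The tonoplast aquaporin TIP1-1 homolog Sp20g00057 (chromosome 20, 281141 to 281777) had 662, 609.7, 693 and 562 FPKM in fronds and 7.26, 0.145, 0 and 0 FPKM in roots, with a log2 difference of -8.49 ± 0.56 (SE; adjusted p = 2.2e-09), or -9.24 without root library 5. The neighbouring TIP1-1 homolog Sp20g00056 went the same way, at 75.4 ± 18.98 FPKM in fronds against 0.363 ± 0.597 FPKM in roots. Root and frond thus differed in which TIP1 gene was high, since TIP1-2 above was a root gene.

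Grouping those 5 genes as cuticle and epidermis was done after they were seen, and no test was made of it. Protodermal factor 1, an extracellular protein marking shoot epidermis in Arabidopsis, had a homolog (Sp08g00486, chromosome 8, 4045880 to 4047543) at 809, 715, 838 and 854 FPKM in fronds and 4.505, 0.646, 0.498 and 1.48 FPKM in roots. 3-ketoacyl-CoA synthase 10, which lengthens fatty acids for cuticle, had a homolog (Sp05g00075) at 367, 613, 499 and 505 FPKM in fronds and 2.94, 3.396, 0.701 and 0.309 FPKM in roots. For both, every frond library stood above every root library, which the choice of these genes required. The wax-forming decarbonylase GL1-1 of rice (Sp11g00864) had 277 ± 91.01 FPKM in fronds and 0.485 ± 0.594 in roots, the cuticle lipid exporter ABCG11 (Sp02g00487) 391 ± 117 and 1.25 ± 0.814, and the GDSL lipase LTL1 (Sp14g00120) 166 ± 24.6 and 0.0985 ± 0.197. Galactinol synthase 1, which starts raffinose synthesis, had a homolog (Sp13g00367) at 571, 482, 487 and 553 FPKM in fronds and 2.96, 0, 0.279 and 0 FPKM in roots. An aspartyl protease homolog (Sp12g00463) stood at 464 ± 29.8 FPKM in fronds and was listed at 0 in root libraries 6, 7 and 8. The remaining genes have domains but no named homolog. Sp07g00653 and Sp04g00978 carry a lipid transfer domain, with 421 ± 53.4 and 217 ± 56.8 FPKM in fronds, and Sp02g00736 carries the domain of pollen Ole e I proteins, with 289.6 ± 12.6 FPKM in fronds. All 3 were below 0.5 FPKM in root libraries 6 to 8.

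**Figure D2:**
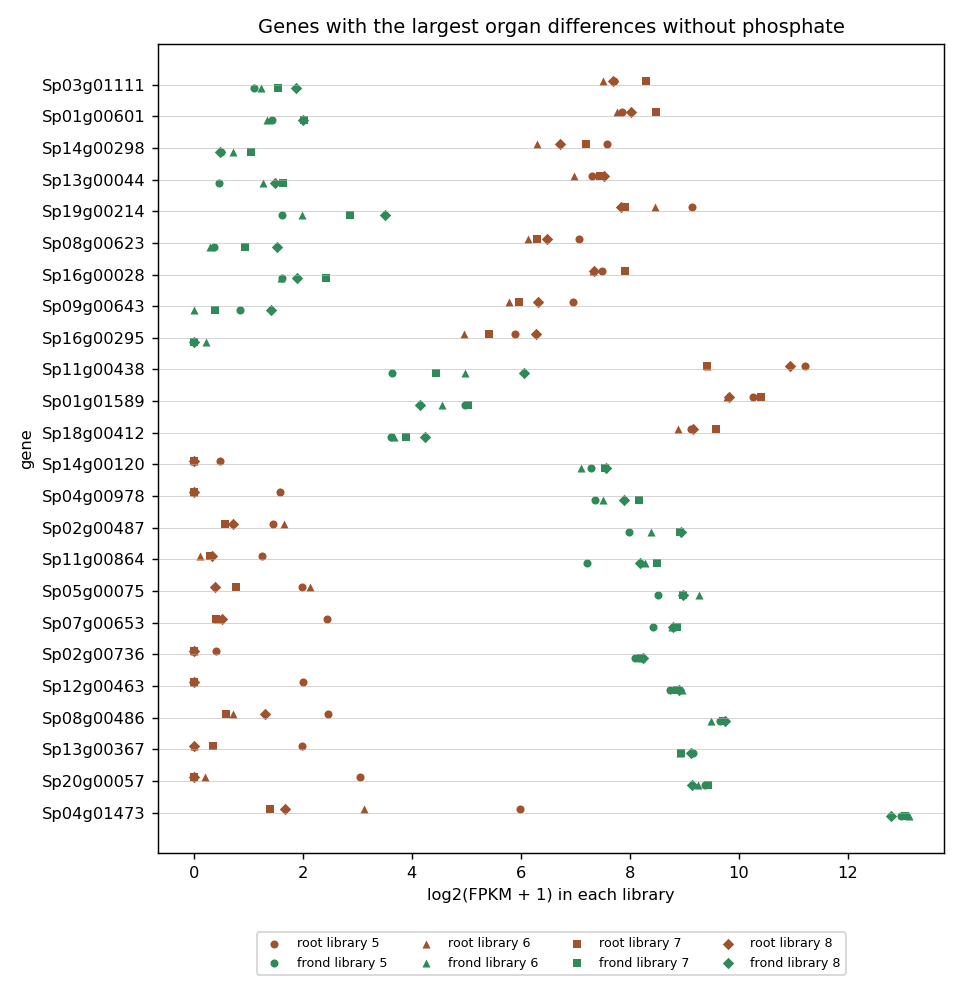
Each row is a gene of the 12 largest root and 12 largest frond excesses, with log2(FPKM + 1) in each library on the x axis, brown for roots and green for fronds, and the marker shape giving the library number. No row has overlapping organs, since only such genes were chosen. In the frond rows other than Sp05g00075 and Sp02g00487 the circle of root library 5 lies to the right of the other roots.

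The 8 most abundant transcripts of each organ shared photosystem II 10 kDa protein (Sp17g00044) and Rubisco activase (Sp10g01056), which were on both lists. Those of fronds further included enzymes of carbon fixation, with a chloroplast aldolase homolog (Sp09g00527) at 12967, 13902, 12429.8 and 11426 FPKM in fronds and 2622, 3666, 3639.8 and 2906 FPKM in roots. The chloroplast glyceraldehyde-3-phosphate dehydrogenase GAPA2 (Sp04g01181) had 10520.3, 11213, 13518 and 11244 FPKM in fronds and 2236, 2546, 2726 and 1606 FPKM in roots. Those of roots further included aquaporins, nitrogen genes and Sp16g00574, which has the domain of a small antimicrobial protein (MiAMP1) and no named homolog. It had 7703, 4044, 3764 and 6700.5 FPKM in roots and 178, 265, 277 and 253 FPKM in fronds, a log2 difference of 4.46 ± 0.26 (SE; adjusted p = 4.23e-10). Sp20g00603, also without a homolog and among the 8 most abundant frond genes, had 26244, 619, 29834 and 11276 FPKM in fronds and 3687, 1453, 4649 and 6283 FPKM in roots and was not called, at -1.28 ± 0.92 (SE; adjusted p = 0.229). Frond library 6 was lower than every root library for this gene, and without it the log2 difference was -2.55 (adjusted p = 0.000859 by limma).

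Transcripts measured in a single organ were mostly frond transcripts. Of the 16598 genes tested, those that averaged 5 FPKM or more in an organ and did not pass 0.2 FPKM in any library of the other were counted. By this rule 87 genes were restricted to fronds and 8 to roots. Traces of root transcripts in the frond pools could not be checked, as given above. Of the restricted genes, 47 frond genes were listed at 0 in all 4 root libraries and 6 root genes at 0 in all 4 frond libraries. In full medium 61 of the 87 and 2 of the 8 met the same rule. Leaving out root library 5 raised the frond count to 157, against 104, 90 and 89 without root libraries 6, 7 and 8, and leaving out a frond library gave 8 to 14 root genes.

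The frond-restricted genes included regulators of the epidermis and shoot. The homolog of very-long-chain 3-oxoacyl-CoA reductase 1, a step of wax chain elongation, Sp10g00094, had 66.9, 80.2, 85.8 and 80.6 FPKM in fronds and was listed at 0 in every root library. Homologs of ROC2, a homeobox regulator of rice outer cell layers, were Sp17g00350 (52.8, 54.4, 57.8 and 56.5 FPKM in fronds, 0.0711 FPKM in root library 5 and 0 in the others) and Sp13g00972 (42.1, 37.7, 38.8 and 37.7 FPKM in fronds, 0.0489 FPKM in root library 5 and 0 in the others). The auxin-conjugating enzyme GH3.6 (Sp17g00422) had 40.6, 35.2, 31.2 and 27.7 FPKM in fronds and at most 0.0398 FPKM in a root library. ER1, an ERECTA-type receptor kinase that shapes shoot organs and stomata in other plants (Sp18g00117), stood at 35.3 ± 3.697 FPKM in fronds and at most 0.193 FPKM in roots. Apart from FIT, root-restricted genes were low: Sp06g01082 had 8.32, 10.03, 14.6 and 11.1 FPKM and Sp03g01112 8.69, 10.5, 10.6 and 9.12 FPKM in roots, both listed at 0 in all fronds and neither with a named homolog. Sp03g00856, a homolog of indole-3-glycerol phosphate lyase, which makes free indole in maize, had 9.001, 10.7, 9.39 and 8.77 FPKM in roots and was also listed at 0 in fronds.

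Photosynthesis genes were lower in roots but far from absent. Of 58 light-reaction genes, 52 were higher in fronds (89.7%) and 1 in roots (1.72%), beside 35% and 32.6% of all genes tested. Their median log2 difference was -1.28 beside -0.02 for all genes tested. Only 5 were 4 times or more higher in fronds. The summed level of the 58 genes was 154543 to 168838 FPKM in the starved frond libraries and 59656 to 78687 FPKM in the starved root libraries. The photosystem II 10 kDa protein homolog Sp17g00044 was among the 8 most abundant genes of both organs, at 16314, 16985, 19252 and 16923 FPKM in fronds and 9918, 7041, 8992 and 10167 FPKM in roots. The exception was a photosystem II 22 kDa (PsbS) homolog of low level, Sp04g00161, with 3.86, 10.4, 10.2 and 12.5 FPKM in roots and 4.27, 2.94, 2.42 and 1.41 FPKM in fronds, a log2 difference of 1.40 ± 0.31 (SE; adjusted p = 0.000872).

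Carbon fixation and its side reactions followed the fronds with named exceptions. Of 34 Calvin cycle and photorespiration genes tested, 25 were higher in fronds (73.5%) and 6 in roots (17.6%), beside 35% and 32.6% of all genes tested. The median of the list was -1.35. Carbonic anhydrase, which supplies inorganic carbon, had a homolog (Sp05g00466) at 16159, 14064, 21029.5 and 9119 FPKM in fronds and 322, 832, 689 and 324 FPKM in roots, a log2 difference of -4.86 ± 0.62 (SE; adjusted p = 3.85e-06). The 2 Rubisco activase homologs differed in the size of their frond excess. Sp10g01056 had 22025 ± 1356 FPKM in fronds and 5229 ± 730.2 FPKM in roots, a difference of -2.08, and Sp01g01702 had 4792 ± 1173 and 494 ± 277 FPKM, a difference of -3.49. The photorespiratory glycine cleavage H protein (Sp20g00517) went from 215 ± 67.9 FPKM in roots to 2149 ± 236 in fronds. Against this pattern, Sp15g00063 (chromosome 15, 830509 to 833461), a homolog of the Rubisco small subunit, was a root gene, with 625, 554, 531 and 488 FPKM in roots and 30.7, 26.1, 28.5 and 33.8 FPKM in fronds and a log2 difference of 4.16 ± 0.12 (SE; adjusted p = 1.99e-13). The model Sp15g00063 also carries a domain of small nuclear ribonucleoproteins, and which part of it gave the reads was not tested. The glycolate oxidase homolog GLO1 (Sp11g00512) was also root-high, at 29.1, 27.3, 39.5 and 31.03 FPKM against 2.71, 1.96, 4.04 and 3.11 FPKM.

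Pigment synthesis had 36 of 42 tested members higher in fronds (85.7%) and 2 in roots (4.76%), with a median of -1.04. The magnesium chelatase subunit ChlH (Sp10g00613), at the branch to chlorophyll, stood at 1255 ± 109.8 FPKM in fronds and 272 ± 48.5 FPKM in roots. The root-high member of note by size was uroporphyrinogen III methyltransferase, which leads to siroheme, the cofactor of nitrite and sulfite reductases (Sp14g00622, 1403, 1007, 1151 and 1097 FPKM in roots and 201, 219, 169.7 and 213 FPKM in fronds). Starch genes divided, with 15 of 30 higher in fronds (50%) and 6 in roots (20%), beside 35% and 32.6% of all genes tested. After rescaling to equal sums the starch counts were 12 and 9. Isoamylase 3, a debranching enzyme of starch breakdown, was 4 times or more higher in roots (Sp07g00971, 114 ± 37.5 against 19.4 ± 4.52 FPKM). Sucrose and sugar transport genes were higher in fronds for 26 of 36 (72.2%) and in roots for 7 (19.4%), or 17 and 8 after rescaling. The sugar exporters parted, SWEET1a (Sp04g00398) having 43.4, 43.3, 48.02 and 50.5 FPKM in fronds and at most 0.449 FPKM in roots, and SWEET2a (Sp05g00599), a vacuolar carrier in Arabidopsis roots, 222 ± 32.1 FPKM in roots against 66.99 ± 7.42 in fronds. The neutral invertase CINV2 (Sp10g00342) was root-high, at 122 ± 17.7 against 22.05 ± 2.57 FPKM.

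The organ labels were checked against marker genes, and shoot surface markers separated the organs more sharply than root markers did. Cuticle and lipid transfer genes were higher in fronds for 26 of 32 (81.25%) and in roots for 2 (6.25%), beside 35% and 32.6% of all genes tested. Their median was -2.52, and 19 were 4 times or more higher in fronds, beside 6.28% of all genes tested. A lipid-transfer protein of fronds (Sp10g00918) had 105, 158, 221 and 237 FPKM there and 0 in root libraries 6 to 8, with 6.21 FPKM in root library 5, and its log2 difference of -6.72 became -7.43 without that library. A GPI-anchored lipid-transfer protein (Sp07g00062) was higher in roots, at 73.1 ± 30.03 against 5.46 ± 1.09 FPKM. All 11 stomata and epidermis genes were called, beside 67.6% of all genes tested, and 10 of them (90.9%) were higher in fronds. SPEECHLESS (Sp05g00297), which starts the stomatal lineage, had 2.61, 4.02, 4.304 and 2.86 FPKM in fronds, and FAMA (Sp04g01037), which ends it, 4.51, 3.47, 3.47 and 1.57 FPKM. Both were listed at 0 in all 4 root libraries, as were the secreted stomatal regulator EPF1 (Sp16g00714, 6.29 ± 1.604 FPKM in fronds) and EPFL1 (Sp18g00490, 14.1 ± 4.03 FPKM). The stomata-promoting peptide EPFL9 (Sp10g00160, 29.8 ± 12.1 FPKM in fronds) was detected in root library 5 only, at 1.13 FPKM.

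Root cell markers split, 7 of 27 being higher in roots (25.9%) and 6 in fronds (22.2%), with 14 not called. Both shares lay below those of all genes tested, 32.6% and 35%. After rescaling to equal sums the counts were 15 and 3. BEARSKIN1, a root cap factor of Arabidopsis, had a homolog (Sp07g00545) at 4.87, 9.996, 6.36 and 3.18 FPKM in roots and 1.28, 0, 0.327 and 0.148 FPKM in fronds. The homologs of SHORT-ROOT, which patterns the ground tissue of roots, went opposite ways: Sp03g00384 had 9.05 ± 1.81 FPKM in roots and 3.73 ± 0.864 in fronds, while Sp07g00514 had 0.252 ± 0.339 in roots and 4.24 ± 1.09 in fronds. The model Sp07g00514 also carries a peroxidase domain, and which part of it gave the reads was not tested. SCARECROW (Sp01g01244), the partner of SHORT-ROOT in Arabidopsis, was higher in fronds by a small difference of -0.50 ± 0.16 (SE; adjusted p = 0.0106) on the log2 scale, which was no longer called after rescaling (-0.24). COBRA-like protein 1, which orients wall growth (Sp03g00574), had 509 ± 60.9 FPKM in roots and 179 ± 7.21 in fronds.

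Barrier and lignin genes favoured the roots. Of 81 lignin, suberin and Casparian strip genes tested, 45 were higher in roots (55.6%) and 20 in fronds (24.7%), with a median of 0.68. The shares of all genes tested were 32.6% and 35%. In the list 21 and 10 genes differed by 4 times or more, beside 4.21% and 6.28% of all genes tested. CYP86B1, which makes long-chain suberin monomers, had a homolog (Sp02g00542) at 137, 148, 80.05 and 63.2 FPKM in roots and 2.44, 2.44, 5.44 and 6.47 FPKM in fronds, a log2 difference of 4.38 ± 0.36 (SE; adjusted p = 2.51e-08). A CASP-like 1C1 protein, related to the scaffold of the Casparian strip (Sp08g00558), had 60.6, 54.8, 31.4 and 25.02 FPKM in roots and 0, 1.65, 0.706 and 2.56 FPKM in fronds. Phenylalanine ammonia-lyase, the entry to phenylpropanoids (Sp18g00153), had 65.01 ± 9.09 against 3.06 ± 0.988 FPKM. Members of these families also marked fronds, among them CASP-like 2A1 (Sp04g01199), with 117, 100.2, 116 and 100.2 FPKM in fronds and 0 in root libraries 6 to 8. Class III peroxidases, which cross-link walls and lignin, were higher in roots for 10 of 22 and in fronds for 10 (45.5% each). Over all genes tested the shares were 32.6% and 35%. Of these peroxidases, 9 root-high and 8 frond-high genes differed by 4 times or more. Cationic peroxidase 1 (Sp06g00235) had 55.6, 42.3, 57.7 and 39.1 FPKM in roots and 0.583, 1.12, 0 and 1.22 in fronds, and peroxidase 45 (Sp12g00830) 81.2 ± 14.9 against 3.34 ± 1.22 FPKM. The neighbouring homologs of peroxidases 13 and 71 were frond genes, Sp16g00158 at 92.3 ± 9.86 against 0.809 ± 0.826 FPKM and Sp16g00159 at 153 ± 29.2 against 2.18 ± 1.13 FPKM. Genes of wall loosening and building were higher in fronds for 67 of 117 (57.3%) and in roots for 22 (18.8%), with a median of -0.79. An example was the pectinesterase inhibitor 6 homolog Sp01g00963, at 50.4 ± 5.73 FPKM in fronds and 0.257 ± 0.439 FPKM in roots.

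Water channels divided by gene. Of 21 aquaporins tested, 11 were higher in roots (52.4%) and 8 in fronds (38.1%), beside 32.6% and 35% of all genes tested. After rescaling to equal sums the counts were 12 and 6. Plasma-membrane aquaporins were abundant in both organs. PIP2-1 (Sp14g00027) had 10361, 6393, 8748 and 8502 FPKM in roots and 4114, 4218, 4847 and 4448 FPKM in fronds, a log2 difference of 0.93 ± 0.14 (SE; adjusted p = 2.68e-05), and the PIP1-3 homolog Sp01g01801 6838 ± 1272 against 3872 ± 235 FPKM. A second PIP1-3 homolog, Sp10g01099, was more strongly root-high, at 1756 ± 246 against 276 ± 29.2 FPKM, a difference of 2.66. TIP2-1 (Sp08g00835), among the 8 most abundant root genes, was not called between organs, at 6063 ± 1475 against 7899 ± 1275 FPKM (log2 difference -0.40 ± 0.18 (SE; adjusted p = 0.056)). It was called as frond-high with voom and without frond library 5, frond library 6 or root library 5, the adjusted p then being 0.0123 to 0.0499.

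The phosphate genes showed both organ-bound and shared levels. Among 11 phosphate transport genes 5 were higher in roots and 5 in fronds (45.5% each), beside 32.6% and 35% of all genes tested. Among 13 SPX and phosphate signalling genes the counts were 4 and 4 (30.8% each), or 6 and 4 after rescaling to equal sums. The PHO1 homolog, Sp02g00083 (chromosome 2, 356206 to 373673), had 146, 104, 133 and 111 FPKM in starved roots and 28.4, 29.5, 29.4 and 28.1 FPKM in starved fronds, a log2 difference of 2.05 ± 0.11 (SE; adjusted p = 1.65e-10). Probable ubiquitin-conjugating enzyme E2 24, which is PHO2 in Arabidopsis and removes phosphate transporters there, had a homolog (Sp08g00497, chromosome 8, 4113997 to 4131681) at 53.1, 39.9, 53.9 and 48.95 FPKM in roots and 6.88, 5.84, 5.62 and 6.18 FPKM in fronds, a difference of 2.80 ± 0.12 (SE; adjusted p = 8.43e-12). Neither gene had overlapping organs. PHO1 homolog 1 (Sp08g00286), by contrast, was not called, at 7.63 ± 1.35 FPKM in roots and 9.15 ± 2.701 in fronds (log2 difference -0.21 ± 0.18 (SE; adjusted p = 0.312)). Plasma-membrane uptake transporters of phosphate were not analysed here.

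The 2 homologs of PHOSPHATE STARVATION RESPONSE 2 differed in degree. Sp09g00058 had 48.3, 49.8, 69.1 and 52.4 FPKM in roots and 10.9, 14.9, 16.4 and 14.02 FPKM in fronds, a log2 difference of 1.89 ± 0.14 (SE; adjusted p = 7.13e-09). Sp02g00122 was at 86.2 ± 7.102 in roots and 66.9 ± 2.13 FPKM in fronds, a difference of 0.36 ± 0.08 (SE; adjusted p = 0.00126). The SPX proteins were closer to even. SPX4 (Sp10g00487) had 15.6 ± 1.73 against 9.09 ± 1.12 FPKM, a difference of 0.72 ± 0.13 (SE; adjusted p = 0.000155). SPX3 (Sp08g00151) stood at 23.4, 19.9, 20.8 and 16.8 FPKM in roots and 21.5, 18.6, 8.25 and 12.4 FPKM in fronds and was not called (log2 difference 0.46 ± 0.25 (SE; adjusted p = 0.111)), while in full medium it had 20.02 ± 4.201 FPKM in roots and 4.93 ± 1.66 in fronds (log2 difference 1.85 ± 0.25). The change of its organ difference between media was -1.38 ± 0.35 (SE; adjusted p = 0.27), which did not pass the test. After rescaling to equal sums and without frond library 5, the starved difference of SPX3 was called, at 0.73 and 0.65. The SPX membrane proteins Sp14g00561 and Sp14g00562, related to vacuolar phosphate carriers, were not called without phosphate either, at 0.15 and -0.11.

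The transporters of phosphate compounds in plastids were measured in both organs and differed in degree. Both homologs of glucose-6-phosphate/phosphate translocator 2, which imports sugar phosphate into non-green plastids, were root-high, Sp17g00348 at 585 ± 67.5 against 202 ± 31.04 FPKM and Sp13g00970 at 93.97 ± 16.7 against 29.7 ± 4.66 FPKM. The phosphoenolpyruvate/phosphate translocator 1 homolog (Sp05g00488) and the plastid phosphate transporter 2-1 homolog (Sp16g00394) were frond-high, at 143 ± 4.53 against 49.5 ± 9.66 FPKM and 92.5 ± 12.1 against 44.5 ± 8.79 FPKM. Phosphoenolpyruvate/phosphate translocator 2 (Sp13g00366) had 39.1, 35.7, 54.2 and 56.7 FPKM in roots and 34.9, 29.9, 23.5 and 20.2 FPKM in fronds (log2 difference 0.76 ± 0.29 (SE; adjusted p = 0.0279)), and it was not called without frond library 7 or 8 or root library 7 or 8, the adjusted p then being 0.0657 to 0.0851.

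**Figure D3:**
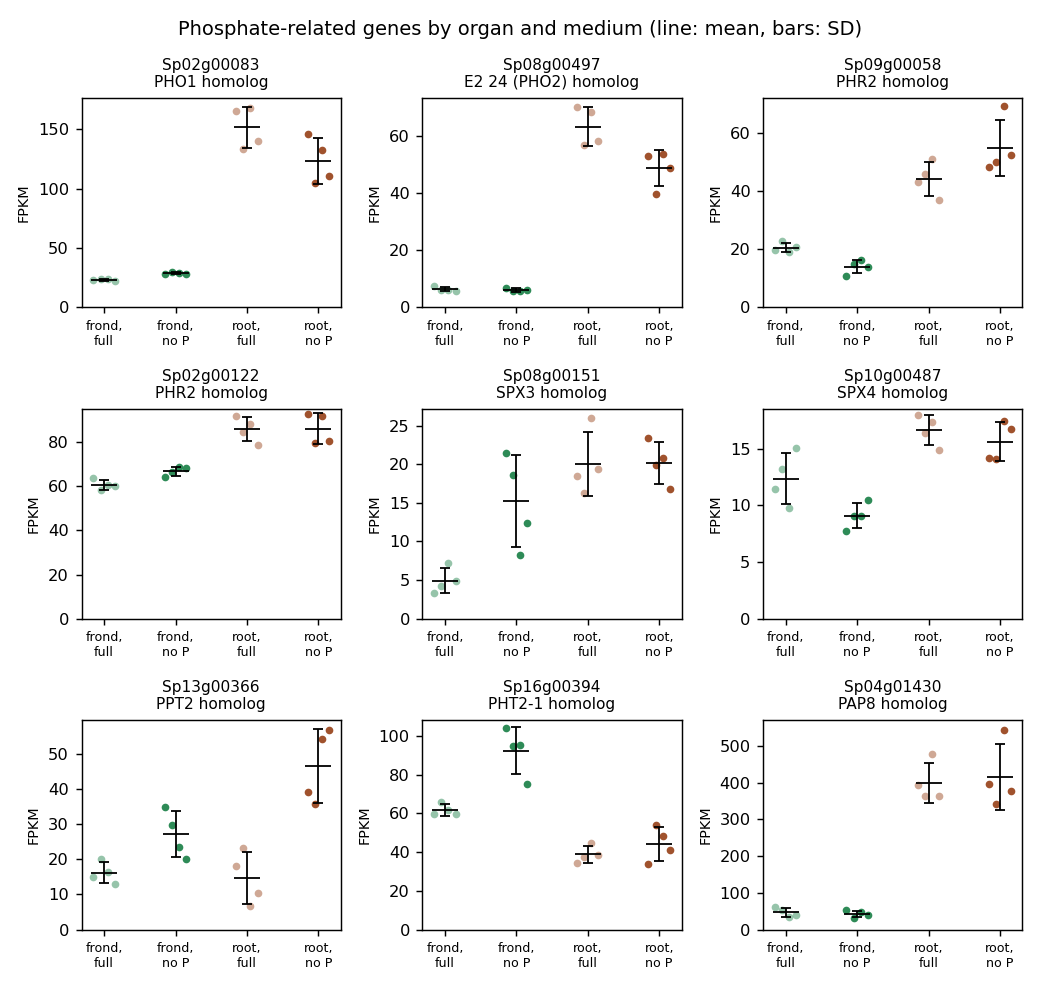
FPKM of 9 phosphate-related genes in each library of fronds and roots in full medium and without phosphate, with the mean as a line and the SD as bars (n = 4 each). PHO1 and E2 24 (PHO2) separate the organs in both media, while the SPX3 values of starved fronds, 8.25 to 21.5 FPKM, reach those of the roots.

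Enzymes that release or save phosphate were also split. Of 35 acid phosphatase and phosphorus scavenging genes, 16 were higher in roots (45.7%) and 12 in fronds (34.3%), beside 32.6% and 35% of all genes tested. The frond share thus lay near that of all genes. After rescaling to equal sums the counts were 19 and 11. Purple acid phosphatase 8 (Sp04g01430) had 397, 342, 544 and 376 FPKM in roots and 53.04, 33.1, 47.2 and 39.9 FPKM in fronds, a log2 difference of 3.23 ± 0.19 (SE; adjusted p = 5.91e-10), and purple acid phosphatase 22 (Sp16g00022) 142 ± 34.8 against 21.4 ± 1.29 FPKM. The adjacent homologs of inactive purple acid phosphatase 29 were frond genes, Sp20g00410 at 69.2 ± 18.5 against 7.68 ± 3.31 FPKM and Sp20g00411 at 49.4 ± 13.8 against 5.81 ± 2.45 FPKM. Lipid genes were higher in roots for 14 of 36 (38.9%) and in fronds for 18 (50%), counts that became 16 and 15 after rescaling. Phospholipid-degrading enzymes led the root side. Non-specific phospholipase C4, which in Arabidopsis frees phosphate from membrane lipid under starvation, had a homolog (Sp11g00243) at 255, 159, 129 and 118 FPKM in roots and 3.199, 3.46, 5.03 and 5.42 FPKM in fronds, a log2 difference of 4.93 ± 0.26 (SE; adjusted p = 1.59e-10). The adjacent phospholipase D alpha 4 homologs Sp16g00381 and Sp16g00382 had 44.2 ± 7.01 and 28.3 ± 4.89 FPKM in roots against 0.756 ± 0.389 and 0.637 ± 0.204 in fronds. On the frond side were enzymes of plastid lipids without phosphorus, which were not counted as a list of their own. UDP-sulfoquinovose synthase, which makes the sulfolipid head group, had a homolog (Sp01g01157) at 87.5, 99.3, 98.2 and 84.6 FPKM in fronds and 15.8, 21.1, 17.3 and 11.3 FPKM in roots, a log2 difference of -2.46 ± 0.14 (SE; adjusted p = 5.58e-10), and monogalactosyldiacylglycerol synthase (Sp12g00726) stood at 197 ± 22.98 against 83.8 ± 9.63 FPKM.

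Nitrogen uptake and assimilation gave some of the most abundant root transcripts. The partner protein of high-affinity nitrate transporters (Sp16g00432) had 4090.1, 6146, 5943 and 6608 FPKM in roots and 1347, 1054, 965 and 941 FPKM in fronds, a log2 difference of 2.39 ± 0.19 (SE; adjusted p = 1.46e-08). Asparagine synthetase, which makes the amide used for nitrogen transport (Sp01g01460), had 5662, 5137, 9173 and 5691 FPKM in roots and 165, 248, 561 and 331 FPKM in fronds, a difference of 4.40 ± 0.39 (SE; adjusted p = 6.39e-08). Cytosolic glutamine synthetase (Sp18g00255) stood at 3127 ± 533 against 268 ± 38.6 FPKM and ammonium transporter 2 member 1 (Sp01g01425) at 43.3 ± 10.9 against 6.43 ± 2.13 FPKM. Internal sulfate carriers were frond genes. The adjacent sulfate transporter 3.3 homologs Sp18g00369 and Sp18g00368 had 188 ± 3.18 and 105 ± 6.78 FPKM in fronds against 13.1 ± 5.23 and 6.702 ± 1.98 in roots. Over the list of nitrate, ammonium and sulfate genes, 19 of 51 were higher in roots (37.3%) and 22 in fronds (43.1%), or 24 and 19 after rescaling to equal sums. Over all genes tested the shares were 32.6% and 35%. The summed level of the list members was 21186 to 23016 FPKM in root libraries and 12514 to 14168 in frond libraries.

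Iron, zinc and copper transport leaned to roots, with 26 of 43 higher there (60.5%) and 13 in fronds (30.2%), and a median of 1.00. The shares of all genes tested were 32.6% and 35%. At 4 times or more the list had 14 and 4, beside 4.21% and 6.28% of all genes tested. The neighbouring Nramp5 homologs, manganese and iron importers in rice roots, had 141, 146, 121 and 111 FPKM (Sp16g00127) and 131, 116, 109.8 and 92.9 FPKM (Sp16g00128) in roots and no more than 3.08 FPKM in any frond library. Ferritin-3, the plastid iron store (Sp10g00950), was a frond gene, at 466 ± 123 against 99.8 ± 22.6 FPKM. A run of 3 ferric reductase homologs on chromosome 14, enzymes that reduce iron before uptake, was split: Sp14g00663 and Sp14g00664 had 18.6, 11.2, 12.5 and 21.9 FPKM and 19.1, 15.01, 14.3 and 16.6 FPKM in fronds and 0 in every root library, and the next gene, Sp14g00665, had 39.2, 31.3, 42.6 and 55.7 FPKM in roots and 2.09, 2.81, 4.01 and 1.46 FPKM in fronds. Sp14g00665 was singled out after its values were seen. Potassium, calcium and proton transport had 28 of 52 higher in roots (53.8%) and 16 in fronds (30.8%), or 31 and 9 after rescaling to equal sums. The frond share lay near the 35% of all genes tested. At 4 times or more the list had 4 genes higher in roots and 4 in fronds. Among the root-high members were potassium transporter 5 (Sp07g00765, 94.9999, 241, 182 and 377 FPKM in roots and 21.3, 28.9, 22.9 and 23.3 FPKM in fronds) and the outward potassium channel KOR1 (Sp07g00890, 37.7 ± 5.66 against 6.88 ± 0.826 FPKM). Starved medium lacked a potassium salt as well as phosphate, and the part of potassium in these levels was not tested. In full medium the 2 genes differed by 2.64 ± 0.45 and 1.88 ± 0.15 on the log2 scale.

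Hormone genes were counted in a list for auxin and another for cytokinin, gibberellin and abscisic acid together. Auxin genes were higher in fronds for 36 of 67 (53.7%) and in roots for 16 (23.9%), with a median of -0.48. The shares of all genes tested were 35% and 32.6%. After rescaling to equal sums the auxin counts were 32 and 22. Auxin response factor 7 (Sp18g00072) had 45.6 ± 6.28 FPKM in fronds and 1.09 ± 0.651 in roots, and a SAUR32 homolog (Sp02g01041) was root-high at 191 ± 42.1 against 18.7 ± 4.59 FPKM. Cytokinin, gibberellin and abscisic acid genes were higher in roots for 28 of 55 (50.9%) and in fronds for 17 (30.9%), or 30 and 14 after rescaling. The largest root excesses of this list belonged to genes of cytokinin synthesis. Adenylate isopentenyltransferase 5, the first step (Sp10g00671), had 66.8, 152, 179 and 101 FPKM in roots and 12.2, 9.79, 12.02 and 8.51 FPKM in fronds, a log2 difference of 3.35 ± 0.24 (SE; adjusted p = 6.25e-09). Cytokinin hydroxylase, which forms trans-zeatin types (Sp18g00296), had 45.4, 38.3, 62.1 and 44.997 FPKM in roots and 1.82, 1.67, 2.07 and 1.69 FPKM in fronds, a difference of 4.09 ± 0.15 (SE; adjusted p = 1.7e-12). Abscisic acid 8'-hydroxylase 3, which degrades the hormone (Sp18g00443), was at 19.999 ± 9.97 FPKM in fronds and at most 0.359 FPKM in a root library. The name abscisic acid 8'-hydroxylase 1 was held by 2 tested genes that went opposite ways. The root-high gene had a mean of 62.8 FPKM in roots and 4.49 in fronds, and the frond-high gene 5.16 FPKM in fronds and 0.492 in roots.

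Transcription factor families are given beside the shares over all genes tested, 32.6% higher in roots and 35% in fronds. NAC genes were higher in roots for 26 of 45 (57.8%) and in fronds for 11 (24.4%), with a median of 0.81. WRKY genes were higher in roots for 22 of 46 (47.8%) and in fronds for 9, and bZIP genes for 16 of 33 (48.5%) and 7. MYB genes, higher in roots for 22 of 60 (36.7%) and in fronds for 15 (25%), lay nearer to those shares, and the counts were 32 and 9 after rescaling to equal sums. Homeobox genes were higher in fronds for 18 of 30 (60%) and in roots for 3, or 5 without root library 6, and for 14 and 7 after rescaling. The bHLH genes were higher in fronds for 15 of 33 (45.5%) and in roots for 8, or 5 without root library 6, with 13 and 9 and a median of -0.01 after rescaling. AP2/ERF genes (16 higher in roots and 20 in fronds of 56, or 18 and 17 after rescaling) and GRAS genes (7 and 10 of 19, or 8 and 5) turned with the scaling. CUP-SHAPED COTYLEDON 3, a boundary factor of Arabidopsis shoots, had a root-high homolog (Sp02g00073) at 34.5, 31.4, 26.5 and 23.5 FPKM in roots and 0.193, 0.297, 0.445 and 0.673 FPKM in fronds. By contrast both NAC35 homologs were frond genes, Sp16g00183 at 23.9 ± 2.55 and Sp07g00535 at 22.6 ± 3.44 FPKM, with at most 0.111 FPKM in a root library. MYB59 (Sp06g00112) had 55.95 ± 13.1 against 1.88 ± 1.05 FPKM, bHLH30 (Sp13g00466) 245 ± 36.2 against 17.3 ± 4.37, WRKY35 (Sp13g00776) 60.3 ± 6.92 against 3.42 ± 0.632 and ERF114 (Sp04g00748) 97.7 ± 10.7 against 10.1 ± 1.17, all higher in roots. An AP2-like factor (Sp12g00731) and the third ROC2 homolog (Sp17g00351) were higher in fronds, at 55.6 ± 7.397 against 2.06 ± 1.26 and 53.6 ± 6.05 against 0.139 ± 0.198 FPKM.

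**Figure D4:**
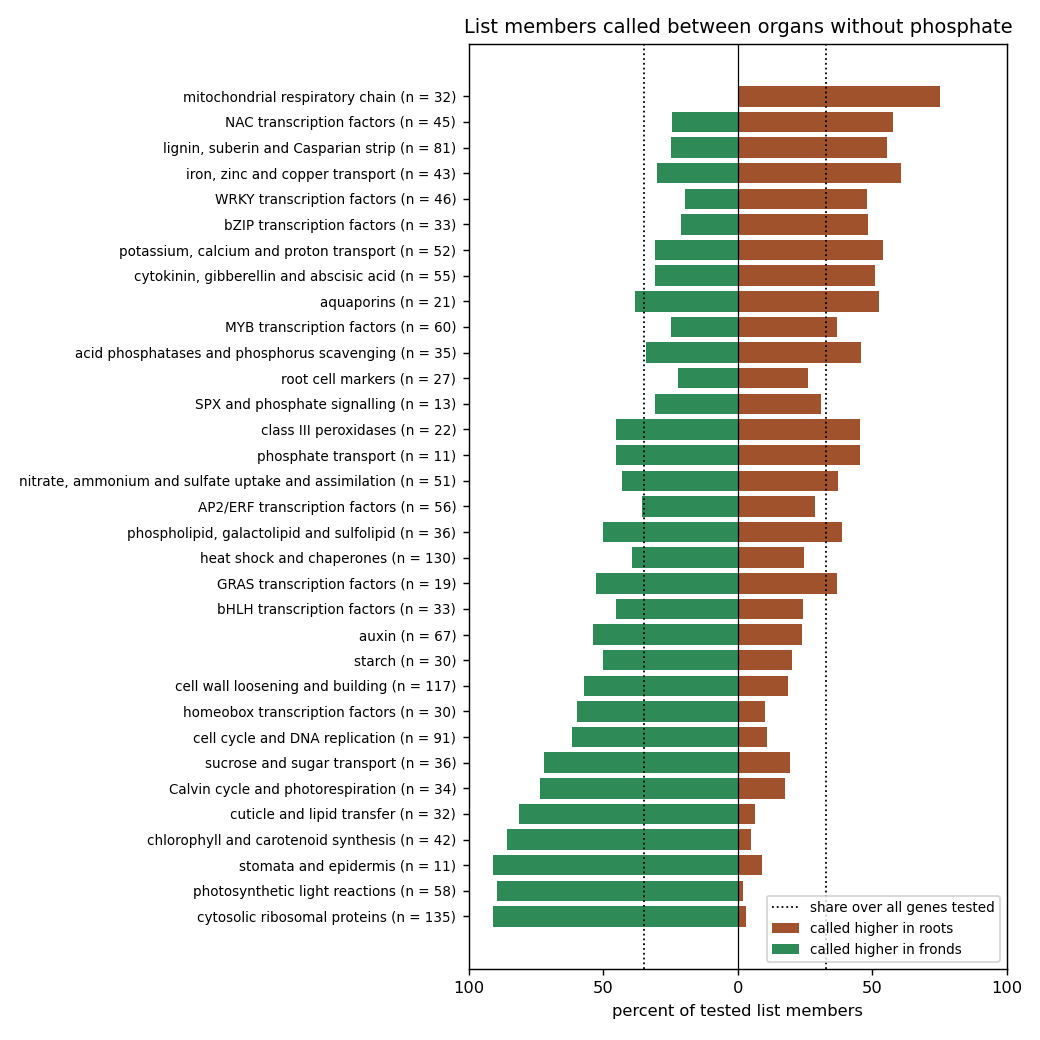
Percent of the tested members of each gene list called higher in roots (brown, right) and in fronds (green, left), with the number tested in brackets. Dotted lines mark the shares over all genes tested, 32.6% for roots and 35% for fronds; ribosomal proteins and stomata and epidermis lie farthest to the frond side and the respiratory chain farthest to the root side.

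Most ribosomal protein and cell cycle genes were higher in fronds and most respiratory chain genes in roots. Of 135 cytosolic ribosomal protein genes, 123 were higher in fronds (91.1%) and 4 in roots (2.96%), beside 35% and 32.6% of all genes tested. Their median was -1.31 without phosphate and -0.80 in full medium. Only 4 were 4 times or more higher in fronds, but 15 without root library 6 and 2 without root library 5 or 7. The P0 protein of the ribosomal stalk (Sp06g01333) shows that library, with 169.7, 349, 163 and 172 FPKM in roots and 751, 886, 839 and 896 FPKM in fronds. Its groups did not overlap with or without library 6. The large-subunit protein L10 (Sp02g01259) had 14.5, 39.7, 15.9 and 16.8 FPKM in roots and 117, 121, 90.3 and 91.5 FPKM in fronds. An L19-1 copy of low level (Sp10g00779) ran the other way, at 22.01 ± 11.2 against 1.18 ± 0.52002 FPKM. Cell cycle and DNA replication genes, which also mark the dividing cells of buds, were higher in fronds for 56 of 91 (61.5%) and in roots for 10 (11%). Their median was -1.04 without phosphate and -0.52 in full medium, and the counts became 49 and 17 after rescaling to equal sums. Cyclin D4-1 (Sp03g00361), of the class that starts division, had 13.9, 14.2, 18.6 and 16.6 FPKM in fronds and 0.301, 1.19, 0 and 0 FPKM in roots, and the replication-linked histone H3.2 (Sp10g00313) 125 ± 17.9 against 18.9 ± 12.004 FPKM. The replacement histone H3.3 (Sp20g00209) was higher in roots, at 848 ± 156 against 407 ± 13.8 FPKM. Mitochondrial respiratory chain genes were higher in roots for 24 of 32 (75%) and in fronds for 0 (1 in full medium), with a median of 0.67. An example was the succinate dehydrogenase flavoprotein (Sp01g00210) at 117, 118, 146 and 122 FPKM in roots and 45.7, 45.8, 43.5 and 42.1 FPKM in fronds. Heat shock and chaperone genes were higher in fronds for 51 of 130 (39.2%) and in roots for 32 (24.6%), beside 35% and 32.6% of all genes tested. The counts turned to 34 and 47 after rescaling to equal sums. A DnaJ B1 homolog led the root members (Sp19g00264, 338 ± 64.9 against 37.7 ± 2.63 FPKM) and a plastid chaperonin 60 subunit the frond ones (Sp11g00445, 356 ± 40.3 against 66.2 ± 26.3 FPKM).

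The organ differences of starved plants were largely those of replete plants. In full medium 9929 genes (59.8%) were called, 4785 higher in roots (28.8%) and 5144 in fronds (31%). Of the 5415 root-high genes without phosphate, 4312 (79.6%) were also called root-high in full medium, which is 90.1% of the root-high genes there. For frond-high genes the shared count was 4645, or 80.1% and 90.3%. The direction was opposite for 3 genes called in both media. Of the 1742 genes at 4 times or more, 1726 were called the same way in full medium and 0 the opposite way. Across the 16598 genes the differences in the 2 media correlated at r = 0.954, a description across genes that share library types and scaling but no library.

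**Figure D5:**
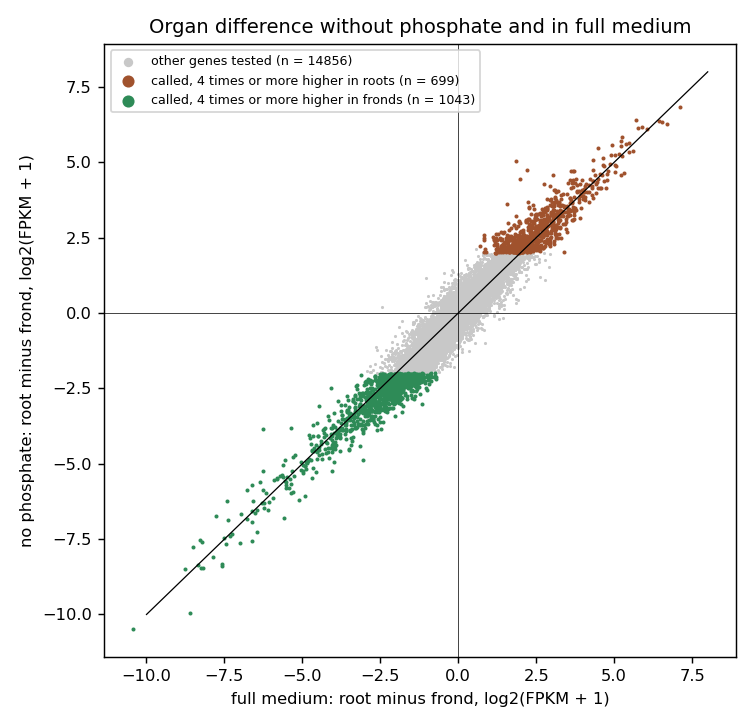
Each point is a gene, with its root minus frond difference on the log2(FPKM + 1) scale in full medium on the x axis and without phosphate on the y axis, and a line of equal difference. The 699 brown and 1043 green genes, called at 4 times or more without phosphate, lie along that line, and none lies in the quadrant of the opposite organ.

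Whether any organ difference was itself changed by starvation was tested for every gene. With limma, 0 of 16598 genes were called (0%), while 1843 had an unadjusted p under 0.05. The count was 2 with voom on the recovered reads, 2 after rescaling to equal sums, 6 with a pseudocount of 5 FPKM and 3 without frond library 7. It rose to 116 without root library 6, 39 of them more root-sided without phosphate and 77 more frond-sided, and 110 of the 116 had an unadjusted p under 0.05 with all libraries. It was 0 without any of the other 6 starved libraries. Genes whose difference reached the threshold in several of these settings were chosen after their values were seen. Sp12g00854, an intracellular Ras-group-related leucine-rich repeat protein, had a root minus frond difference of 3.62 without phosphate and 1.57 ± 0.22 in full medium, a change of 2.05 ± 0.32 (SE; adjusted p = 0.0645). It stood at 253, 157, 191 and 268 FPKM in starved roots and 17.3, 10.8, 21.3 and 18.04 FPKM in starved fronds, against 119 ± 21.2 and 40.01 ± 8.95 FPKM in full medium. Sp19g00262, a homolog of the MLO membrane proteins, had differences of 2.58 and 0.81 ± 0.19, a change of 1.77 ± 0.27 (SE; adjusted p = 0.0645), with 91.2, 51.96, 67.7 and 73.3 FPKM in starved roots, 11.2, 9.47, 13.1 and 9.91 FPKM in starved fronds, and 40.2 ± 6.86 and 22.8 ± 5.57 FPKM in full medium. For both, the starved mean was above the replete mean in roots and below it in fronds. UDP-sulfoquinovose synthase (Sp01g01157), given above, differed by -2.46 without phosphate and -1.28 ± 0.14 in full medium and was among the 6 genes called with the larger pseudocount.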

How the data were processed

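Per the labels' protocols, poly-T selected RNA gave libraries read from both ends at 150 bp. HISAT2 2.0.5 and featureCounts 1.5.0-p3 are named in the submitters' processing notes. Build, annotation, settings and use of strand were not given in the sources used here. Positions are therefore the table's own, and overlapping genes and close copies can share reads. Per the file headers the authors deposited FPKM, and 98.4% of gene lengths are multiples of 3, taken as coding length. FPKM times length gave whole multiples of 1 step for 100% of values (tolerance 0.001), hence the reads quoted. That step corresponds to a library size of 0.886 to 0.945 times the summed reads in starved fronds and 1.03 to 1.13 times in starved roots, a scaling whose origin is not stated. No replicate pair agreed within sampling noise (chi-square per degree of freedom at least 3.68).

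Group means of log2(FPKM + 1) were fitted over the 16 libraries with limma 3.58.1 in R 4.3.3 (trended, robust prior with statmod 1.5.0, 12 residual degrees of freedom), and two-sided p-values were adjusted by Benjamini-Hochberg over 16598 genes. Fold changes on this scale understate those of low genes. The design's branch for FPKM was used. Table columns are numbered 5 to 8 within each starved organ, and the numbers do not show which labelled flask a column is, so libraries were not paired. Replicates were separate flasks per the labels.

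Members, lists and tests were chosen with earlier results of these data known. The 33 gene lists were matched by keyword to homolog names and domains and can hold genes that only share a word. Named were the 12 largest excesses each way with at least 5 FPKM in the higher organ, a description and no overlap, up to 3 such called members per list each way (a part is given), the 8 most abundant genes per organ, organ-restricted genes, and marker genes whether or not they passed. A protein, promoter or transcript sequence was not used here. Alternatives were pseudocounts of 0.1 and 5 FPKM, other filters and priors, equal sums, the 8 starved libraries alone, a block by number, leaving out each starved library and, chosen after seeing the data, voom on recovered reads.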

Additional observations from a re-analysis of the deposited data

Results flagged for a closer look

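Among the 304 sets of 4 libraries behind the genes named here (152 genes in starved roots and in starved fronds), 30 had a library that stood apart from the other libraries of its group, by a gap above Dixon's 95% critical value for 4 samples. Chance gives about 1 in 20, and a group with a single value above 0 always meets this measure. In 21 of them the library was root library 5, always the highest. For 20 of those the gene was high in fronds. The levels in root library 5 of genes over 1 FPKM were 78.04 in Sp14g00301, 62.6 in Sp04g01473, 7.26 in Sp20g00057, 6.21 in Sp10g00918, 4.45 in Sp07g00653, 2.9998 in Sp12g00463, 2.96 in Sp13g00367, 1.99 in Sp04g00978, 1.37 in Sp11g00864, 1.25 in Sp20g00056 and 1.13 in Sp10g00160 FPKM. Those of the lower genes were 0.9097 in Sp01g00963, 0.724 in Sp04g01199, 0.394 in Sp14g00120, 0.321 in Sp02g00736, 0.284 in Sp07g00176, 0.111 in Sp07g00535, 0.104 in Sp16g00183, 0.0711 in Sp17g00350 and 0.0489 in Sp13g00972 FPKM. The other root libraries held at most 7.69 FPKM of any of these genes, and root library 5 is the library that also held low levels of 20 of 26 frond transcripts. Frond material in that pool was not tested. All of these differences kept their call and direction without root library 5.

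The copper transporter 1 homolog Sp06g01303 was the exception in that library, a root-high gene with 865 FPKM in root library 5 and at most 145 FPKM in the other roots. Its log2 difference of 4.28 became 3.47 without library 5. Root library 6 stood above the other roots for the ribosomal proteins Sp06g01333 (349 FPKM) and Sp02g01259 (39.7 FPKM), beside its high sum for that list, and at the edge of detection for Sp17g00422 (0.0398 FPKM). Root library 7 stood apart for asparagine synthetase Sp01g01460 (9173 FPKM) and succinate dehydrogenase Sp01g00210 (146 FPKM), and root library 8 for the P450 85A homolog Sp07g00178 (17.2 FPKM). Frond library 6 was the highest frond library for polyphenol oxidase Sp05g00632 (16.3 FPKM) and FIT Sp16g00295 (0.168 FPKM) and the lowest for phospholipase D Sp16g00382 (0.335 FPKM).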

How the results depend on the processing

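Every alternative kept the direction of each gene called both there and in the reported fit. The counts of called genes, of those higher in roots and of those higher in fronds stayed within 1.5 times of the reported ones in every setting (8936 called with a minimum mean of 5 FPKM, where fewer genes were tested, and 10699 to 11554 in the others). Called differences of 4 times or more numbered 2820 with a pseudocount of 0.1 FPKM, 793 with 5 FPKM and 2761 with voom on recovered reads, against 1742, as the scale of low genes sets them, and 1645 to 1938 when a starved library was left out. Genes whose organ difference changed with the medium numbered 6 with a pseudocount of 5 FPKM and 2 with voom, with equal sums or with the replicate block, and 0 to 116 when a library was left out (3 without frond library 7, 116 without root library 6, cause not tested), against 0. With the block by column number, 11002 genes were called between organs, and SPX3 (Sp08g00151) was called at 0.46 (adjusted p = 0.0483 by limma). Same-numbered libraries deviated together weakly (r from -0.0051 to 0.147), and 4 of 8 libraries correlated best with their own number. These values do not decide whether same-numbered libraries came from the same flask. Of 2575 values of 152 named genes over 17 settings, 2559 kept direction and call, 5 lost the call, 8 gained it and 3 turned sign, all of uncalled genes: Sp14g00562 went from -0.11 to 0.17 with equal sums and to 0.026 without frond library 5, and Sp08g00286 from -0.21 to 0.0425 with equal sums. EdgeR and DESeq2 tests, planned for recovered reads, were not run. Low depth limits genes under 0.507 FPKM, for which a 0 does not show absence.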

Other observations

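A few homolog names had members on the side of each organ. Of 2011 homolog names held by 2 or more tested genes, 32 had a gene called 4 times or more higher in starved roots and another called 4 times or more higher in starved fronds. The genes named in this paragraph were chosen after their values were seen, and no test was made of the families. ABP19a, the name with the largest frond excess above, also had a root gene, Sp12g00576, at 249, 129, 71.3 and 84.9 FPKM in roots and 8.51, 5.32, 5.11 and 7.42 FPKM in fronds. Polyphenol oxidase, which browns phenolics, had a root gene (Sp05g00632, 208 ± 15.1 FPKM in roots and 10.2 ± 4.08 in fronds) and a frond gene (Sp09g00892, 2.06 ± 1.18 and 60.98 ± 5.79). Glycerol-3-phosphate acyltransferase 5, an enzyme of suberin synthesis in Arabidopsis roots, likewise had Sp06g00064 at 34.5 ± 14.6 FPKM in roots and 1.68 ± 1.24 in fronds, and Sp01g01694 at 3.64 ± 0.696 and 28.5 ± 2.15 FPKM. Copper transporter 1 had a root gene of uneven level, Sp06g01303, at 865, 52.9, 94.9 and 145 FPKM in roots and 2.56, 8.22, 6.89 and 16.7 FPKM in fronds, and a frond gene, Sp01g01747, at 5.01 ± 0.354 FPKM in fronds and 0.371 ± 0.239 in roots.

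A run of 4 neighbouring cytochrome P450 85A homologs on chromosome 7, the family that finishes brassinosteroid synthesis, was split in the middle. Sp07g00175 had 17.1, 26.96, 23.96 and 24.4 FPKM in fronds and 0.543, 0.358, 0 and 0.228 FPKM in roots. Next to it, Sp07g00176 had 12.5 ± 1.22 FPKM in fronds and 0.0711 ± 0.142 in roots. The following genes were root-high, Sp07g00177 at 4.76, 9.58, 7.78 and 16.9 FPKM in roots and 0.357, 2.197, 0.823 and 0.498 FPKM in fronds, and Sp07g00178 at 12.2 ± 3.37 and 1.37 ± 0.524 FPKM. Such splits were few, both among neighbours that share a homolog name and among other neighbours. Of 627 neighbouring pairs that share a name, 120 held at least 1 gene called at 4 times or more. In 62 of these (51.7%) both genes were so called towards the same organ and in 4 towards opposite organs. Among 13654 other neighbouring pairs, 2332 held such a gene, with both towards the same organ in 241 (10.3%) and towards opposite organs in 48. Close copies can share reads, and their part in these counts was not tested.

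The largest differences of the whole table belonged to genes without any description. Sp14g00301 had 4635, 4490.4, 5733 and 5058 FPKM in fronds and 78.04, 0.246, 0.474 and 0 FPKM in roots, and Sp02g00305 had 315, 226, 351 and 438 FPKM in roots and 1.72, 1.32, 2.38 and 2.16 FPKM in fronds. The log2 difference of Sp14g00301 was -10.48, and -11.98 without root library 5, and that of Sp02g00305 was 6.82.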
